A study of Mus musculus with 15 samples.

Results

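The untreated hippocampus of the neonatal mouse is described here from the 3 arrays of pups that received no treatment, of 15 arrays in all, which were chosen by the treatment recorded for each sample. Each array read total RNA of the right hippocampus of a male C57BL/6 pup on postnatal day 9, birth being recorded as day 1. These pups (CC) served as untreated controls in a study that also holds 4 groups of 3 stressed pups given saline or morphine, none of which enters a comparison below. The sources used here do not say whether the pups were littermates, and their replicate numbers only name the arrays. The labels name no allele, transgene or injection for these pups, and the tissue was taken whole, so that fewer cells of a type and less RNA per cell cannot be told apart.

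The hippocampus forms and stores memories through a relay of excitatory neurons, from the dentate gyrus through CA3 to CA1, held in check by GABA-releasing interneurons. In the mouse it is born unfinished: in the postnatal weeks dentate granule cells are still generated, axons find their targets, glutamate and GABA receptors exchange fetal for adult subunits, and oligodendrocytes are only starting to make myelin. The levels below describe that program in untreated pups.

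Levels are log2 intensities of an Affymetrix Mouse Gene 1.0 ST array, on which a step of 1 is 2-fold, and each gene is read by the probe set with the highest mean over all 15 arrays. Probe sets differ in how strongly they bind, so a brighter probe set does not show that its gene has more RNA, and values of different genes are set side by side without ranking their RNA. The 1015 olfactory receptor genes, which sensory neurons of the nose use to detect odours, served as a yardstick of what a gene that is little used gives on these arrays. A gene was called above background where it passed the 95th percentile of those genes on all 3 arrays (4.77 on CC replicate 1, 4.74 on CC replicate 2 and 4.75 on CC replicate 3), at background where it passed on none, and mixed otherwise. By construction about 1 in 20 olfactory receptor genes passes on each array, so a call near the yardstick is weak, and genes at background have only an upper bound.

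The labels were checked first. Xist, the RNA that coats the inactive X chromosome of females, was 4.11, 4.17 and 4.12 on CC replicates 1, 2 and 3 and at background on each. The Y-linked genes Eif2s3y (7.91 ± 0.13), Kdm5d (7.07 ± 0.21) and Uty (6.69 ± 0.09) were above it (SD, n = 3), as in a male. Of 16 markers of the hippocampal fields 15 were above background. So were 13 of 13 thalamus genes and 11 of 13 striatum genes, so this count cannot tell the hippocampus from neighbouring tissue. The 3 arrays were alike, with correlations across genes of 0.9968, 0.9963 and 0.9977 and a median SD per gene of 0.070. CC replicate 1 nevertheless stood apart in a small set of genes, most of them higher there, that included 9 of the 13 measured members of a striatum list and 5 of the 16 of a myelin list. The mean of the striatum list was 7.65 on CC replicate 1, 6.41 on CC replicate 2 and 6.41 on CC replicate 3. Results that touch these genes are therefore given array by array or also without CC replicate 1.

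Of 19938 genes, 13922 were above background on all 3 arrays (69.8%), 637 were mixed and 5379 were at background (27.0%). The median level was 6.25 over all genes, 7.32 over those above background and 4.12 over those at background. The distribution had 2 humps, a narrow one at background and a broad one near a level of 8. Some 4761 genes reached 8 (23.9%), 733 reached 10 (3.68%) and 41 reached 12 (0.206%). With CC replicate 1 left out, 14016 genes were above background on the remaining arrays.

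**Figure D1:**
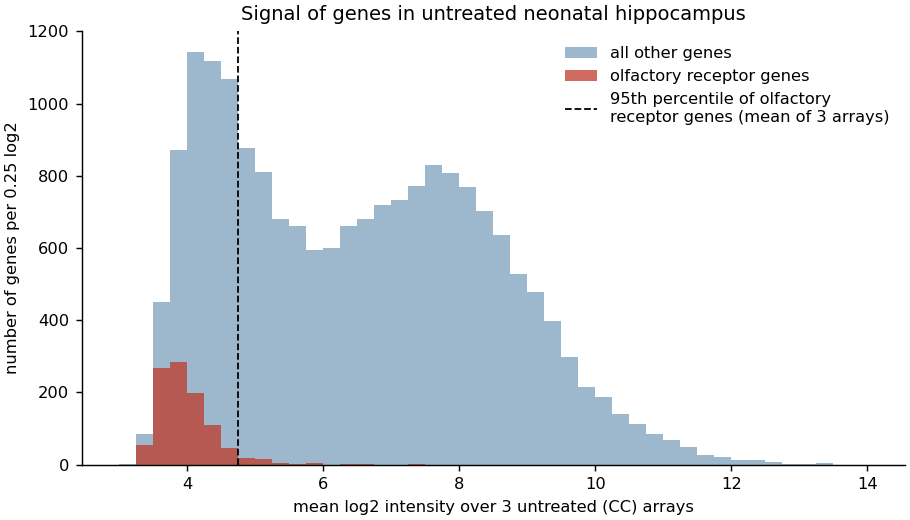
Number of genes (vertical axis) by their mean log2 intensity over the 3 untreated arrays (horizontal axis, bins of 0.25), with olfactory receptor genes in red and all other genes in blue. The olfactory receptor genes gather around a median of 3.91, and most other genes lie to the right of the dashed line, the mean over arrays of their 95th percentile.

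The brightest symbol in untreated pups was Baiap2l1, the gene of an adaptor between membranes and actin, at 13.49 on CC replicate 1, 13.47 on CC replicate 2 and 13.50 on CC replicate 3. The probe set behind that value does not list the gene's messenger RNA. The array has 3 probe sets under this symbol, and the bright one and a second at 10.34 list 2 RefSeq non-coding transcripts each. The only probe set that lists the gene's RefSeq mRNA gave 4.25, 4.39 and 4.47 and was at background. Baiap2l1 is therefore not counted as abundant here, and 3 small RNAs (Rn7sk, Rny3 and Rpph1) were brighter than the last of the 25 named genes.

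The other genes of the brightest 25 are given by what their products do. Tuba1a, the alpha-tubulin of young neurons, was 13.27, 13.29 and 13.27 on CC replicates 1, 2 and 3, and Eef1a1, which brings tRNAs to the ribosome, was 13.28, 13.29 and 13.23. The arrays hardly differed in either. The cytoskeleton was further represented by Actb (beta-actin, 13.10 ± 0.02), Tubb2b (a beta-tubulin of developing neurons, 12.34 ± 0.11), Stmn2 (a growth cone regulator of microtubules, 12.51 ± 0.09), Dpysl2 (an axon growth protein, 12.34 ± 0.03) and Gap43 (the growth-associated protein of axon tips, 12.28 ± 0.10). Calm2 (12.80 ± 0.04) and Calm3 (12.24 ± 0.07) both encode the calcium sensor calmodulin. Signalling was represented by Gnb1, a G protein beta subunit (12.56 ± 0.04), and by the 14-3-3 adaptors Ywhah (12.51 ± 0.03) and Ywhaz (12.48 ± 0.03). The membrane proteins Gpm6a (12.46 ± 0.02), of neurons, and Serinc1 (12.51 ± 0.10) belonged to this set too.

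Genes of housekeeping duties in the brightest 25 were the mitochondrially encoded oxidase subunit COX2 (12.51 ± 0.03), the folding factors Ppia (12.47 ± 0.02) and Hspa8 (12.41 ± 0.01), the ribosomal stalk protein Rplp1 (12.41 ± 0.08), the lysosomal precursor Psap (12.33 ± 0.01) and the iron store Fth1 (12.27 ± 0.05). For COX2 no RefSeq transcript of the gene was found among those its probe set lists, so that value rests on the platform's symbol. Secreted products of glia were Apoe, the lipid carrier of astrocytes (12.57 ± 0.07), Sparcl1, an astrocyte protein that promotes synapses (12.44 ± 0.0046), and the protease inhibitor Cst3 (12.39 ± 0.09). Ttr, a carrier of thyroid hormone that choroid plexus secretes, was 12.65 on CC replicate 1, 13.03 on CC replicate 2 and 12.82 on CC replicate 3. It had the widest spread of the 25 and was lowest on CC replicate 1. Choroid plexus lies beside the hippocampus in the ventricle, and its part in this level was not tested.

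The promoters of 2 of these genes and of 2 genes at background are printed to show a difference in base composition between these sets of genes. Each sequence is the 250 bases before the gene's start in RefSeq (GRCm38.p6), 5′ to 3′ along the gene, with CG dinucleotides in capitals. Tuba1a and Eef1a1 are the bright ones. Alb, the plasma albumin gene of liver, was 4.21, 4.21 and 4.25 on CC replicates 1, 2 and 3, and Myh6, a heart muscle myosin, was 4.45, 4.37 and 4.23.
Tuba1a (chr15:98953502-98953751, minus strand): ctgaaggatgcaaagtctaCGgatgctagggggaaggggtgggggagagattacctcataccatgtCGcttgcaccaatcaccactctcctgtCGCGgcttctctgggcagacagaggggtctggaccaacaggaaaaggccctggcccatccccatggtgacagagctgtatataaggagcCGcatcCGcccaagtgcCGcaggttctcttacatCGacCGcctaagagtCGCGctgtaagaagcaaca
Eef1a1 (chr9:78481725-78481974, minus strand): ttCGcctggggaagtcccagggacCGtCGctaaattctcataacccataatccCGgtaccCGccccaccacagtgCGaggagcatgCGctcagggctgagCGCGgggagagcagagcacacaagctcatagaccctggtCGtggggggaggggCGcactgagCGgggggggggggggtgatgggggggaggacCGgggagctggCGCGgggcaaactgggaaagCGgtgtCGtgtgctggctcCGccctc
Alb (chr5:90460620-90460869, plus strand): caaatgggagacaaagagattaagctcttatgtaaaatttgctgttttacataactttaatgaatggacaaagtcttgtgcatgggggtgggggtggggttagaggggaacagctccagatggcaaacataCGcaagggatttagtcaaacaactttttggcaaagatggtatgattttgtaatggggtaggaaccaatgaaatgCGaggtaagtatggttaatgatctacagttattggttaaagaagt
Myh6 (chr14:54966608-54966857, minus strand): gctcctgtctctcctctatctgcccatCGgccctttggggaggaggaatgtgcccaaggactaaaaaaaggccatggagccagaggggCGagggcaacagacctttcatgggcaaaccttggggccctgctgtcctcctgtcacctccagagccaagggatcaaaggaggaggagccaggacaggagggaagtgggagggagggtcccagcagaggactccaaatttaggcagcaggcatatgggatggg
The bright promoters hold 11 (Tuba1a) and 18 (Eef1a1) CG dinucleotides in these 250 bases, and those of Alb and Myh6 hold 2 each. CG dinucleotides are rare in mouse DNA except in CpG islands, which mark the promoters of widely used genes.

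The same held over all genes with a RefSeq promoter, 15005 of 18553 protein-coding genes (80.9%), counted from 250 bases before to 50 bases after the start. Genes above background had a median of 20 CG dinucleotides (quartiles 12 and 28, 10806 genes), and genes at background had 3 (quartiles 1 and 6, 3767 genes). At least 10 were found in 80.0% of the promoters of genes above background and in 15.2% of those at background. The motif TATAAA, searched on both strands, was present in 7.30% of promoters of genes above background, in 26.1% of those at background and in 12.2% of all these promoters. The median share of G and C was 61% in promoters of genes above background and 45.7% in those at background. Whether TATAAA, which holds neither base, differed beyond this base composition was not tested. These are descriptions of the arrays and of RefSeq, in which large families of sensory receptors, the yardstick's own among them, make up part of the genes at background. Without the olfactory and vomeronasal receptors only 79.8% of the genes at background have a promoter, too few under the 80% set for such a check, which is therefore void. The count climbed with level up to about 7 to 8, where the median was 22, and then levelled off at 23 to 24, so CG content did not separate moderate from bright genes.

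**Figure D2:**
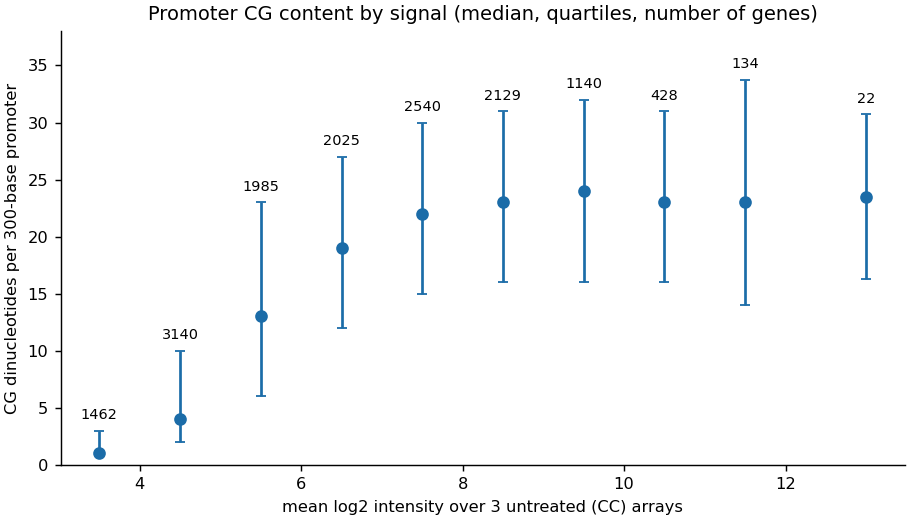
CG dinucleotides per promoter of 300 bases (vertical axis) for genes binned by mean log2 intensity over the 3 untreated arrays (horizontal axis), with dots at the median, bars from the first to the last quartile and the number of genes above each bar. The median goes from 1 in the dimmest bin to 22 at a level of 7 to 8 and stays at 23 to 24 above that.

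Most cell type markers were above background. Over 19 lists, 245 of 285 measured genes were, against 69.8% of all genes, and without CC replicate 1 the count was 246. The 69.8% also counts non-coding and olfactory receptor genes, so the share of the markers is not read as an excess. Excitatory neurons were represented in full, with 11 of 11 members above background and a median of 9.02. Camk2a, the kinase of synaptic plasticity, was 11.16, 11.38 and 11.20 on CC replicates 1, 2 and 3, and Slc17a7, the vesicular glutamate transporter VGLUT1, was 10.98, 11.23 and 11.26. Nrgn, a calmodulin-binding postsynaptic protein (10.32 ± 0.16), and the transcription factor Mef2c (9.41 ± 0.17) followed. CC replicate 1 was the lowest array for 9 of these 11 genes, by small margins: the list means were 9.03, 9.34 and 9.24.

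The markers of the hippocampal fields had a median of 7.93. Pcp4, a calmodulin regulator that marks CA2 within the hippocampus, was 11.15 ± 0.26, and Cpne4, a calcium-dependent membrane-binding protein, was 8.95 ± 0.24. Grik4, a kainate receptor subunit of CA3, was 8.80 ± 0.03, and Prox1, the transcription factor of dentate granule cells, was 8.70 ± 0.21. The listed member at background was Tdo2, a tryptophan-degrading enzyme found in mature granule cells, at 4.04, 4.29 and 4.09.

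Interneuron genes were above background in 20 of 21 cases, with a median of 8.10. The neuropeptide genes Sst (11.09 ± 0.06) and Cck (10.93 ± 0.19) were bright, as were the GABA-synthesizing enzymes Gad1 (9.87 ± 0.22) and Gad2 (9.47 ± 0.45). Gad1 was 10.12, 9.76 and 9.72 and Gad2 was 9.99, 9.17 and 9.26 on CC replicates 1, 2 and 3, so both were highest on the first array. So were 12 of the 21 genes, and the list means were 8.26, 7.96 and 7.99. Pvalb, the calcium buffer of fast-spiking interneurons, was the exception: it was 5.92 on CC replicate 1 and at background, 4.47 and 4.32, on CC replicates 2 and 3. Cajal-Retzius cells, the early neurons that secrete reelin, had 10 of 10 markers above background and 6 above the 99th percentile of the olfactory receptor genes, led by Reln (9.25 ± 0.18), Cxcr4 (a chemokine receptor, 9.01 ± 0.23), Calb2 (8.91 ± 0.13) and Ndnf (7.41 ± 0.07). Reln, Calb2 and Ndnf also stand in the interneuron list, so these markers do not tell the cell types apart.

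Genes of progenitors and immature neurons were above background in 21 of 21 cases, with a median of 9.14, led by Stmn2 and Gap43 described above, by Tmsb10, an actin-binding peptide (12.05 ± 0.04), and by Stmn1, a microtubule destabilizer (12.04 ± 0.04). Of the proliferation list 18 of 19 genes were above background with a median of 6.25, which equals the median of all genes. Pcna, the sliding clamp of DNA replication, was 8.88 ± 0.03, the replication helicase subunits Mcm6 and Mcm2 were 7.30 ± 0.18 and 7.02 ± 0.10, and Top2a, a topoisomerase of dividing cells, was 6.99 ± 0.04. Cenpe, a mitotic kinesin, was at background at 4.51 ± 0.04.

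Among glia, astrocyte genes had the highest median of the marker lists, 9.64, with 16 of 16 above background. After Apoe came Aldoc, a glycolytic aldolase (11.81 ± 0.07), Slc1a2, the glutamate transporter GLT-1 (11.34 ± 0.08), and Glul, which turns glutamate into glutamine (11.28 ± 0.09). Oligodendrocyte precursor genes were above background in 14 of 14 cases with a median of 7.65, led by Pdgfra, the receptor that drives their division (9.82 ± 0.06), Lhfpl3 (8.89 ± 0.25), the lineage factor Olig1 (8.64 ± 0.16) and Gpr17, a receptor of cells about to differentiate. Gpr17 was 9.13, 8.48 and 8.23 on CC replicates 1, 2 and 3. CC replicate 1 was the highest array for each of the 14 genes.

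Genes of mature, myelinating oligodendrocytes were split. Of 16 measured, 12 were above background, the median was 5.86, and Mobp was mixed. Tspan2 (9.19 ± 0.18), Cnp (9.05 ± 0.59) and Mbp (7.92 ± 0.58), the last 2 encoding abundant myelin proteins, were the brightest with Trf, the iron carrier transferrin (7.44 ± 0.13). Mbp was 8.57 on CC replicate 1, 7.75 on CC replicate 2 and 7.44 on CC replicate 3, and Cnp was 9.72, 8.82 and 8.62 in that order. Both were highest on CC replicate 1, whose mean over the list was 6.53, against 6.16 on CC replicate 2 and 5.95 on CC replicate 3. Ermn (4.43 ± 0.11), Opalin (3.98 ± 0.02) and Aspa (3.97 ± 0.06), which belong to late oligodendrocytes, were at background on every array, CC replicate 1 included.

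Microglia, the resident immune cells of brain, had 16 of 16 markers above background but at a low median of 6.52, led by the survival receptor Csf1r (8.28 ± 0.13), the protease Ctss (8.005 ± 0.25), the complement gene C1qc (7.85 ± 0.15) and the fractalkine receptor Cx3cr1 (7.67 ± 0.04). Vessel genes were above background in 19 of 19 cases with a median of 7.43, led by the matrix protein Vtn (9.90 ± 0.20), the tight junction gene Cldn5 (9.49 ± 0.06), the glucose transporter Slc2a1 (9.42 ± 0.14) and Itm2a (9.15 ± 0.10). Meningeal and fibroblast genes were above background in 12 of 13 cases, led by the prostaglandin synthase Ptgds (9.79 ± 0.25), the growth factor Igf2 (9.33 ± 0.27), the matrix proteoglycan Dcn (9.14 ± 0.63) and the collagen Col1a1 (8.77 ± 0.24). Dcn was 8.42 on CC replicate 1, 9.55 on CC replicate 2 and 9.46 on CC replicate 3. Genes of vessels and brain coverings were thus read in this tissue beside those of neural cells.

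Choroid plexus markers were above background in 14 of 14 cases, but apart from Ttr only modestly, with a median of 6.04 and 8 above the 99th percentile of the olfactory receptor genes. Kcnj13, a potassium channel of the plexus, was 6.496, 7.76 and 7.49 on CC replicates 1, 2 and 3, followed by the folate receptor Folr1 (7.05 ± 0.33) and the water channel Aqp1 (6.86 ± 0.26). All 14 genes were lowest on CC replicate 1. Ependyma and cilia genes were above background in 7 of 10 cases, close to the share of all genes, and in 3 with the stricter yardstick, led by Ccdc153 (7.31 ± 0.29) and the cilium master factor Foxj1 (6.24 ± 0.10), with Dnah11 and Spag16 at background. Blood was barely represented, with 3 of 8 measured genes above background (1, Alas2, with the stricter yardstick), the heme enzyme Alas2 (5.86 ± 0.11), the red cell anion exchanger Slc4a1 (5.17 ± 0.14) and the T cell gene Cd3e (5.15 ± 0.05). S100a8, S100a9 and Ly6g of neutrophils, Epb42 of red cells and Cd79a of B cells were at background, and the adult globin genes were not analysed here.

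Markers of neighbouring and distant tissue gave the outer bounds of this account. The 13 thalamus genes were all above background with a median of 6.48, led by Slc17a6, the glutamate transporter VGLUT2 (9.25 ± 0.18), Prkcd (7.79 ± 0.18), Plekhg1 (6.96 ± 0.05) and Lef1 (6.81 ± 0.06). Of genes of other brain regions 9 of 19 were above background, by small margins: with the 99th percentile as the yardstick 1 was, Oxt, the oxytocin precursor, at 6.67, 6.62 and 6.39. Of genes of other organs 8 of 20 were above background and 2 with the stricter yardstick. The brightest of these were Lor, a protein of the skin barrier (6.65 ± 0.05), Ckm, the muscle creatine kinase (5.71 ± 0.09), Actn3 of fast muscle (5.16 ± 0.04) and Prm1 of sperm (5.02 ± 0.02). Whether these genes were used in the tissue was not tested.

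**Figure D3:**
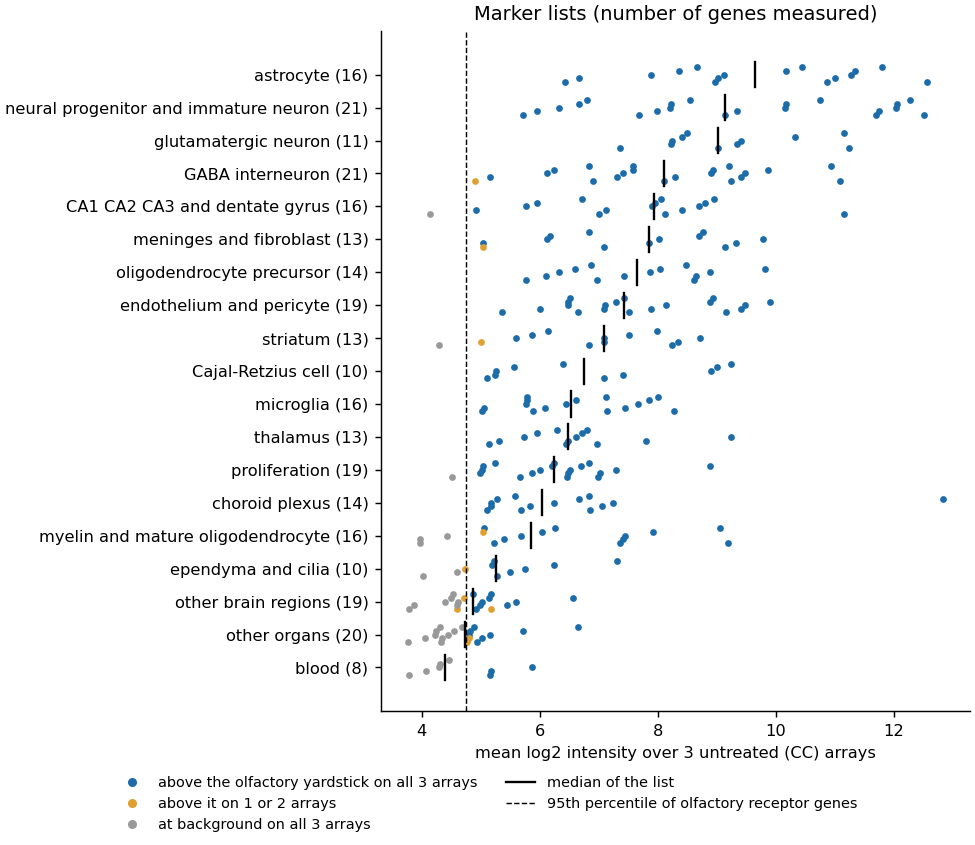
Mean log2 intensity over the 3 untreated arrays (horizontal axis) of each measured gene of 19 marker lists (rows, ordered by median), with a black bar at the list's median and the yardstick as a dashed line. Astrocyte, immature neuron and glutamatergic genes have medians above 9, while blood genes have a median of 4.39 and genes of other organs of 4.73, at the yardstick.

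Transcription factors decide which genes a cell uses. Of 201 measured here, in 5 families, 157 were above background (78.1%, against 69.8% of all genes), the same count as without CC replicate 1. The 69.8% counts non-coding genes and the olfactory receptor genes that set the yardstick. Of protein-coding genes without olfactory and vomeronasal receptors, 13326 were above background and 3513 at background. The share of the factors is therefore not read as an excess. The zinc finger and other neuronal factors had 61 of 63 above background. Zbtb18, a repressor needed for cortical and hippocampal neuron development, was 11.06, 11.42 and 11.35 on CC replicates 1, 2 and 3, the brightest signal among the factors listed. The nuclear factor I genes Nfix (11.09 ± 0.19) and Nfib (10.29 ± 0.16), which drive glial and hippocampal development, and Mef2a (10.14 ± 0.07), an activity-regulated factor, followed. Gata1, of the red cell lineage, was at background, and Gata3 was mixed. Their relatives Gata2 (5.18 ± 0.07) and Gata4 (5.43 ± 0.16) were above background, as were Foxa1 (4.85 ± 0.09) and Foxa2 (5.29 ± 0.0009).

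Basic helix-loop-helix factors, which push progenitors to become neurons or hold them back, were above background in 21 of 28 cases. Tcf4, the broadly used partner of the family, was 10.66 ± 0.10, and Neurod6, of excitatory neurons, was 9.34 ± 0.22. The inhibitors Id2 (9.21 ± 0.25) and Id4 (9.20 ± 0.35), which lack the DNA-binding region, were near it. Genes at background were Neurod4, Neurog3, Atoh1, Nhlh1, Olig3 and Ptf1a, several of which act in cerebellum, spinal cord or pancreas. Factors of other tissues were not all at background: Atoh7 (7.79 ± 0.16) and Tal1 (5.20 ± 0.14) were above it.

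Sox factors were above background in 19 of 20 cases, led by Sox11 (9.34 ± 0.13) and Sox4 (9.14 ± 0.11) of immature neurons, Sox2 of neural stem cells and glia (8.54 ± 0.11) and Sox5 (7.96 ± 0.18). Sox30, a testis factor, was at background. The forebrain homeobox and T-box list, which also holds LIM-only cofactors and zinc finger factors, had 44 of 53 genes above background. It was led by the LIM-only cofactor Lmo4 (10.39 ± 0.10) and the zinc finger factor Zeb2 (9.89 ± 0.14). The LIM-only cofactor Lmo3 (9.72 ± 0.06) and the chromatin organizer Satb1 (9.55 ± 0.23) followed. En1 and En2 of the midbrain and hindbrain, Phox2a of noradrenergic neurons, Pou4f1 of sensory neurons, Gsx2 of the embryonic striatum and Tbx21 were at background. Isl1, a factor of striatal and motor neurons, was 5.88 on CC replicate 1 and at background, 4.57 and 4.56, on CC replicates 2 and 3.

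Hox genes pattern the hindbrain, spinal cord and trunk and are textbook examples of genes silent in forebrain. Of 37 measured, 12 were above background and 22 at background, with a median of 4.52, below the yardstick. The brightest were Hoxb3 (6.02 ± 0.10), Hoxa4 (5.82 ± 0.06), Hoxb1 (5.52 ± 0.03) and Hoxb7 (5.37 ± 0.07). With the 99th percentile as the yardstick 2 of the 37 were above. The share of the Hox genes above background, 32.4%, compares with 69.8% of all genes.

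Receptors set which signals the tissue can read. Over 18 families 178 of 214 measured genes were above background (83.2%, against 69.8% of all genes), the same count as without CC replicate 1. This share is not read as an excess, for the reason given for the transcription factors. Families near the share of all genes, such as the GABA receptors (72.2%) and the peptide receptors (71.9%), do not stand out by their counts. All 4 AMPA receptor genes, which carry fast excitation, were bright: Gria1 was 10.80, 10.998 and 10.93 on CC replicates 1, 2 and 3, Gria2 was 10.55 ± 0.04, Gria3 9.57 ± 0.10 and Gria4 8.82 ± 0.13. Of the NMDA receptor genes, whose channels detect coincident activity, 6 of 6 measured were above background, and Grin1, the obligatory subunit, was not analysed here. Grin2b was 9.66 ± 0.12, Grin3a 8.98 ± 0.10, Grin2a 8.91 ± 0.12 and Grin2d 8.03 ± 0.05. The 6 measured kainate and delta receptor genes were above background too, led by Grik5 (9.72 ± 0.07), Grik2 (8.82 ± 0.14), Grik4 and Grik3 (8.46 ± 0.16).

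Among metabotropic glutamate receptors, which signal through G proteins, Grm5 was 11.01, 11.03 and 11.05 on CC replicates 1, 2 and 3 and hardly varied. Grm3 was 10.13 ± 0.16, Grm7 8.74 ± 0.12 and Grm2 8.41 ± 0.40, and Grm6, which serves retinal bipolar cells, was at background at 4.38 ± 0.08. GABA receptor genes were above background in 13 of 18 cases. The metabotropic subunits Gabbr1 (10.90 ± 0.01) and Gabbr2 (10.20 ± 0.05) and the channel subunits Gabra5, which is enriched in hippocampus (10.83 ± 0.14), and Gabrb2 (10.01 ± 0.07) led the family. Gabra6, of cerebellar granule cells, was at background with Gabre, Gabrp, Gabrr1 and Gabrr3.

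Acetylcholine receptors differed by class. Muscarinic receptors were above background in 5 of 5 cases, led by Chrm3 (9.08 ± 0.18), Chrm1 (8.50 ± 0.07), Chrm4 (7.64 ± 0.01) and Chrm5 (7.04 ± 0.24). Of the nicotinic channel subunits, 7 of 16 were above background, and 4 were above the stricter yardstick. These 4 were the brain subunits Chrna4 (8.59 ± 0.14), Chrna7 (8.18 ± 0.15), Chrnb2 (7.37 ± 0.01) and Chrna5 (7.15 ± 0.29). The muscle subunit Chrna1, Chrna9 and Chrna10 of the inner ear, and Chrna2, Chrna6 and Chrnb3 were at background. Other muscle subunits were not all at background: Chrne (5.13 ± 0.04) and Chrnb1 (4.87 ± 0.07) were above it by small margins. Chrng and Chrnd were mixed, so the calls do not separate brain from muscle subunits.

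Among monoamine receptors, serotonin receptors were above background in 12 of 14 cases. Htr2c, which is also abundant in choroid plexus, was 9.27 ± 0.12, Htr2a was 7.24 ± 0.17 and Htr1a 7.22 ± 0.17. Htr1b was 8.10 on CC replicate 1 and 7.06 on both CC replicates 2 and 3, and Htr2b and Htr3b were at background. All 5 dopamine receptors were above background, and 3 with the stricter yardstick. Drd1 was 7.97, 6.57 and 6.74 and Drd2 was 7.18, 5.28 and 5.15 on CC replicates 1, 2 and 3, so both were highest on the array that stood apart, while Drd5 (6.19 ± 0.07) and Drd4 (6.10 ± 0.09) hardly varied. Of 9 adrenergic receptor genes only Adra2c (6.66 ± 0.09) and Adra1b (5.60 ± 0.06) were measured here, both above background, and 1 with the stricter yardstick.

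Of the opioid list 5 of 6 genes were above background, and the brightest was Ogfr, an unrelated opioid growth factor receptor (8.88 ± 0.05). Oprl1, the nociceptin receptor, was 8.34 ± 0.10, Ogfrl1 was 7.35 ± 0.10 and the delta receptor Oprd1 6.11 ± 0.12. Oprm1, the main target of morphine and named after its values were seen, was 5.04, 4.79 and 4.89 on CC replicates 1, 2 and 3, above but close to the yardstick on each. Oprk1, the kappa receptor, was 4.85 on CC replicate 1 and at background, 4.31 and 4.26, on CC replicates 2 and 3. In the adenosine, cannabinoid and P2Y list 7 of 9 were above background, and 4 with the stricter yardstick, led by the cannabinoid receptor Cnr1 (7.59 ± 0.09) and the purine receptors P2ry13 (6.96 ± 0.10), P2ry1 (6.58 ± 0.52) and P2ry12 of microglia (5.88 ± 0.03), with Cnr2 and P2ry4 at background. P2ry1 was 7.17, 6.27 and 6.29 on CC replicates 1, 2 and 3, again highest on the first.

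Receptors for peptides were above background in 23 of 32 cases and at background in 7. They were led by the PACAP receptor Adcyap1r1 (9.16 ± 0.15), the neurotensin receptor Ntsr2 (9.12 ± 0.18) and the somatostatin receptors Sstr2 (8.64 ± 0.21) and Sstr4 (8.56 ± 0.13). Of the nuclear hormone receptors 13 of 15 were above background. The thyroid hormone receptor Thra was 11.66, 11.82 and 11.79 on CC replicates 1, 2 and 3, the brightest signal among the receptors listed. The mineralocorticoid receptor Nr3c2 was 8.85 ± 0.11, the retinoid partner Rxrb 7.98 ± 0.02 and the glucocorticoid receptor Nr3c1 7.83 ± 0.02. Nr3c2, Rxrb and Nr3c1 varied little between pups, while Esr2 and Vdr were at background.

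Growth factor receptors were above background in 26 of 27 cases, with Fgfr4 at background. After Pdgfra they were led by the bone morphogenetic protein receptor Bmpr2 (9.73 ± 0.13), Fgfr1 (9.42 ± 0.07) and Kit (9.41 ± 0.22). Eph receptors, which repel or attract growing axons, were above background in 12 of 13 cases. Epha4 was 10.44 ± 0.06, Epha5 9.86 ± 0.13, Epha7 9.24 ± 0.26 and Epha6 9.09 ± 0.10, with Epha1, of epithelia, at background. Guidance and Notch receptors were above background in 24 of 24 cases with a median of 8.54, led by the netrin receptor relative Neo1 (9.95 ± 0.02), the plexin Plxna1 (9.86 ± 0.13), the Slit receptor Robo1 (9.73 ± 0.14) and the semaphorin receptor Nrp1 (9.55 ± 0.15). The last list also holds the Notch receptors, which are not receptors of axon guidance.

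Genes chosen as earlier and later in the maturing brain were set side by side in 27 pairs, with the gene taken as earlier given first. Some pairs, such as Fabp7 with Aqp4 or Kcnq3 with Kcnc1, join different proteins. A pair is therefore not always a replacement of 1 form by another. Both genes were measured in 25 pairs, and both were above background in 22, a count that was the same without CC replicate 1. A level in such a pair says whether a gene's signal passed the yardstick on day 9, which does not by itself show use. Since the probe sets differ, it does not say which gene of a pair was more abundant.

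In the glycine receptor pair only the early gene was above background. Glra2, the fetal alpha subunit, was 8.19, 8.32 and 8.25 on CC replicates 1, 2 and 3, and Glra1, its adult counterpart in spinal cord, was 4.25, 4.00 and 4.14 and at background on each. Since Glra1 is the adult form of another region, its level here cannot tell age from region. Glra3 and Glra4 were also at background, while the beta subunit Glrb was 9.51 ± 0.07. In other receptor and transporter pairs both genes were above background. Grin2b stood at 9.66 ± 0.12 beside Grin2a at 8.91 ± 0.12, and Gabra3 at 9.17 ± 0.17 beside Gabra4 at 8.35 ± 0.11. Slc12a2, the importer that makes GABA excitatory in immature neurons, was 8.63 ± 0.10, and Slc12a5, the exporter that makes it inhibitory, was 10.06 ± 0.18. Gabra2, an alpha subunit of young neurons, was 9.94 ± 0.19. Slc17a6 was 9.25 ± 0.18 beside Slc17a7 at 11.16 ± 0.15. The scaffold gene Dlg3 (SAP102) was 8.84 ± 0.08 beside Dlg4 (PSD-95) at 10.71 ± 0.02, and the sodium channel gene Scn3a was 8.20 ± 0.14 beside Scn1a at 7.24 ± 0.21.

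Cytoskeletal pairs were above background throughout. Dcx, of migrating neurons, was 10.17 ± 0.12 beside Rbfox3 (NeuN) at 9.18 ± 0.04. Tubb2b, given above, stood beside Tubb4a at 9.98 ± 0.05, and Ina, an early neurofilament, was 10.26 ± 0.09 beside Nefh at 7.78 ± 0.05. The signals of these mature genes thus passed the yardstick on day 9. Map1b was 11.62 ± 0.14 beside Map2 at 11.06 ± 0.05, Tmsb10 was 12.05 ± 0.04 beside Tmsb4x at 10.72 ± 0.08, and Camk2b was 10.92 ± 0.05 beside Camk2a at 11.25 ± 0.12. For glia, Vim (10.06, 10.18 and 9.77 on CC replicates 1, 2 and 3) stood beside Gfap (9.03, 9.12 and 8.77), and Fabp7, of radial glia, at 11.23 ± 0.06 beside Aqp4, the water channel of astrocyte endfeet, at 10.17 ± 0.17.

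Pairs of nuclear proteins covered the change of subunits that the BAF chromatin remodeller undergoes as progenitors become neurons. Its progenitor subunits Actl6a (7.21 ± 0.09), Phf10 (7.53 ± 0.08) and Ss18 (6.92 ± 0.11) and its neuronal subunits Actl6b (9.17 ± 0.11), Dpf1 (8.68 ± 0.04) and Ss18l1 (8.36 ± 0.01) were all above background. Dnmt3b, the DNA methyltransferase of embryonic cells, was 5.37, 5.33 and 5.39 on CC replicates 1, 2 and 3, beside Dnmt3a at 9.70, 9.44 and 9.50. Dnmt3b was near the yardstick on every array. Igf2bp1, a fetal RNA-binding protein, was at background (4.57 ± 0.02) beside the neuronal RNA-binding protein Elavl4 (7.94 ± 0.08). The embryonic globin Hbb-bh1 was at background at 3.96 ± 0.03.

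The remaining pairs were of enzymes, channels and calcium proteins. The polysialyltransferase St8sia2 was 8.20 ± 0.16 beside St8sia4 at 7.49 ± 0.10, and Ldha was 11.51 ± 0.12 beside Ldhb at 9.40 ± 0.13, both lactate dehydrogenase subunits. Kcnq3 was 9.17 ± 0.03 beside Kcnc1, a channel of fast-spiking neurons, at 6.76 ± 0.12. Syt4 was 10.04 ± 0.25 beside Syt2, a fast calcium sensor of release, which was 6.70, 5.99 and 6.05 on CC replicates 1, 2 and 3. Calb2 stood beside Pvalb, whose values are given above. In the last 2 pairs the mature gene was highest on CC replicate 1.

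**Figure D4:**
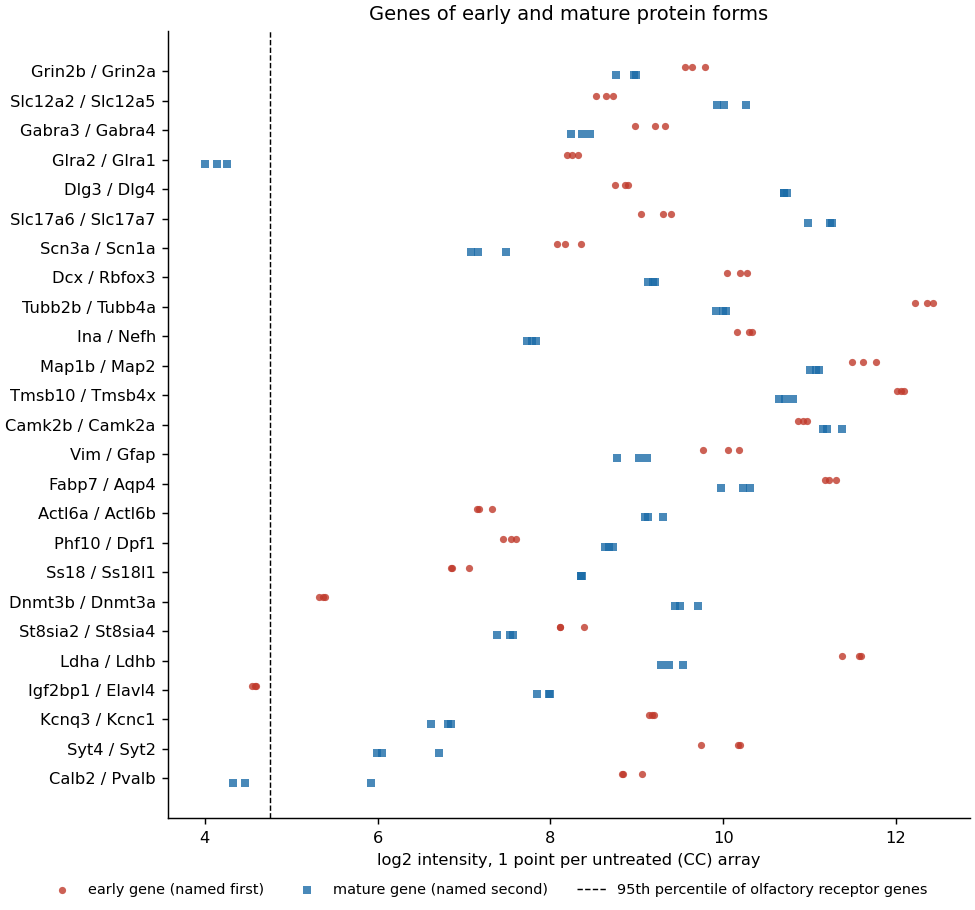
Log2 intensity (horizontal axis) on each of the 3 untreated arrays of 25 gene pairs (rows), with red dots for the early gene, blue squares for the mature gene and the yardstick as a dashed line. Glra1 and Igf2bp1 lie left of the dashed line on all 3 arrays and Pvalb on 2, and the other genes lie to its right.

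The pups resembled one another in nearly every gene. Of the 14559 genes above background on at least 1 array, 97.6% had a range of at most 0.5 between the 3 arrays, and 46 (0.316%) had a range over 1. CC replicate 1 was the array apart in 43 of the 46, higher in 40 and lower in 3, and CC replicate 3 was higher in the other 3. Between CC replicates 2 and 3 alone, 1 gene differed by more than 1. For comparison, CC replicate 1 was the highest array in 31.3% of all genes.

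The widest range was that of Penk, the enkephalin precursor made by striatal neurons, at 10.08 on CC replicate 1, 7.31 on CC replicate 2 and 7.35 on CC replicate 3. Pmch, the hypothalamic melanin-concentrating hormone precursor, was 6.86, 4.35 and 4.30, at background on the last 2. Ppp1r1b (DARPP-32, the dopamine-regulated phosphatase inhibitor) was 8.93, 6.93 and 6.69 in the same order. In each of the 3 genes CC replicate 1 was at least 2 log2 units above the mean of the others. Further genes of striatal projection neurons among the 20 widest were Drd2 and Drd1, given above, Tac1 (substance P precursor, 7.79, 6.28 and 6.41), Rarb (a retinoic acid receptor, 7.09, 5.66 and 5.68) and Pde10a (a phosphodiesterase, 9.20, 7.92 and 7.92). Foxp2, a transcription factor, was 6.36, 4.85 and 4.98, and Meis2, a homeobox factor, was 9.53, 8.25 and 8.83. Isl1 belongs to this set as well.

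Other genes, none of them on the striatum list, were also high on CC replicate 1. Whether striatal neurons use them too was not tested. Mag, a myelin adhesion protein, was 7.32 on CC replicate 1, 6.01 on CC replicate 2 and 5.47 on CC replicate 3. Crabp1, a retinoic acid binding protein, was 9.15, 7.28 and 6.96, and Dgkk, a diacylglycerol kinase, was 7.12, 5.09 and 5.30. Pde7b (8.44, 7.11 and 7.14), Sema3a, a repulsive guidance cue (7.08, 5.91 and 5.75), Nexn, an actin-binding protein (5.29, 3.94 and 4.18), Strip2 (7.47, 6.82 and 6.20) and Pvalb complete the 19 of 20 that were highest there. The exception was Nr4a2, an orphan nuclear receptor, at 7.71, 8.28 and 9.01 and highest on CC replicate 3.

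Lists moved with the array as follows, with values for CC replicates 1, 2 and 3 in turn. The striatum list was highest on CC replicate 1 in 13 of 13 genes, and its members at or partly at background were Ido1 (at background on each array) and Isl1. The mean of the oligodendrocyte precursor list was 7.84, 7.53 and 7.43, and that of the choroid plexus list 6.26, 6.78 and 6.57. Myelin, precursor and striatal genes were thus high on CC replicate 1 while plexus genes were low, and the part that tissue next to the hippocampus had in these values was not tested. The striatum list still had 11 of 13 genes above background without CC replicate 1, the same number as with it, led by Foxp1 at 8.69 and 8.60 on CC replicates 2 and 3.

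**Figure D5:**
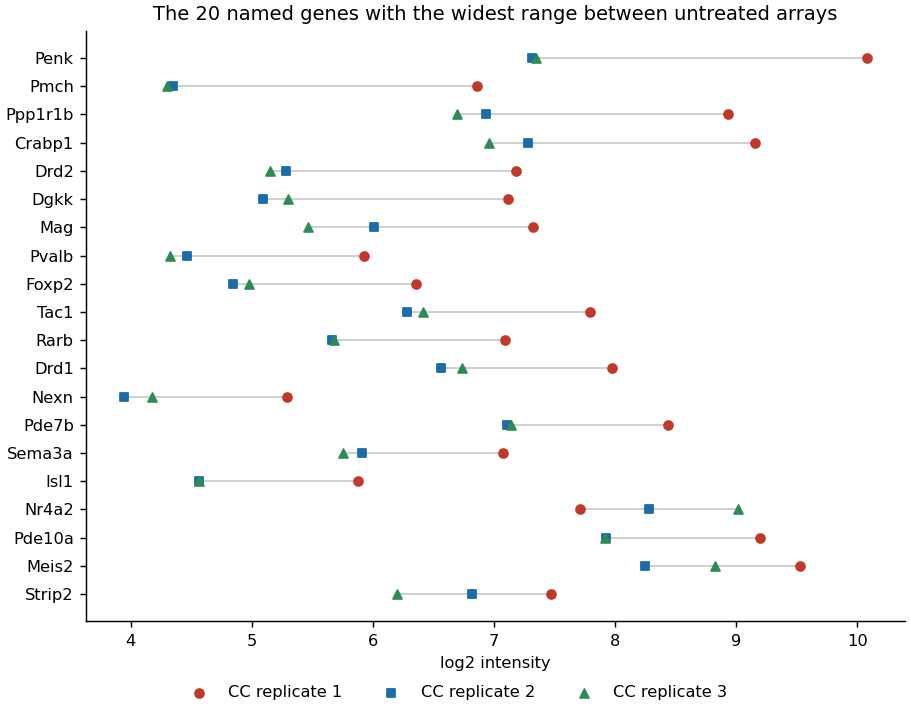
Log2 intensity (horizontal axis) on each untreated array of the 20 named genes with the widest range (rows), with red circles for CC replicate 1, blue squares for CC replicate 2 and green triangles for CC replicate 3. The red circle is the rightmost point for 19 genes, from 10.08 for Penk to 5.29 for Nexn, and Nr4a2 is highest on CC replicate 3.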

How the data were processed

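Total RNA of right hippocampus was read on Affymetrix Mouse Gene 1.0 ST arrays. The authors deposited a table of log2 intensities for the whole series, made with RMA (background correction, quantile normalization and summary of probes) per the submitters' processing notes. The software behind RMA is not named in the sources used here. The log2 values were used as deposited, all 15 columns matched a sample and 0 were left unused. Of 35557 probe sets, 21789 carry 1 gene symbol in the platform annotation, 1621 several and 12147 are unnamed here. The probe set with the highest mean over 15 arrays was kept per gene, which left 19938 genes, 19856 of them found by Entrez ID in RefSeq (GRCm38.p6). In 203 of the 999 genes with several probe sets these differ by more than 2.

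The 3 CC arrays were described by mean, SD and range in Python 3.11.15 with numpy 2.4.6 and pandas 2.3.3. Background was the 95th percentile of 1015 olfactory receptor genes per array, since the table holds no detection calls. No group was compared and no test was run. The number of arrays limits the precision, and the SD covers the spread between these arrays, which may be technical.

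The members and the 42 lists (650 of 702 genes measured) were chosen with earlier results of these data known. Named were the 25 brightest genes, up to 4 of the brightest members per list, members at background (their number where over 6), all 27 pairs, the 20 genes with the widest range and the sex-linked genes. Not named, unless the text says so, are genes with Gm or RIKEN clone symbols, receptors of odour and pheromones, and small RNAs. Promoters were counted from RefSeq, with the first listed promoter per gene. The 99th percentile, vomeronasal receptors as yardstick, quantile normalization, median centring, the median over probe sets and leaving out each array were tried.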

Additional observations from a re-analysis of the deposited data

How the results depend on the processing

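The count of genes above background, 13922, was 11564 with the 99th percentile of the olfactory receptor genes, 16002 with the 95th percentile of the vomeronasal receptors, 13898 with the median over a gene's probe sets and 14007 to 14022 with an array left out. It was 13922 under quantile normalization and median centring, which by construction hardly reorder genes within an array. With the 99th percentile 197 marker genes, 119 transcription factors and 155 receptors were above background, and 11 of 42 lists moved by more than 1.5 times: choroid plexus to 8, Cajal-Retzius cells to 6, ependyma to 3, blood to 1, other brain regions to 1, other organs to 2, Hox to 2, nicotinic to 4, dopamine to 3, adrenergic to 1 and adenosine, cannabinoid and P2Y to 4. The median level of all genes, 6.25, was 6.21 with the median over probe sets and 6.24 to 6.25 with an array left out. The median over probe sets kept 21 of the brightest 25 genes and put Baiap2l1 at 10.34. Without CC replicate 3 the brightest 25 shared 24 genes, and under the other alternatives 25. The count of genes with a range over 1, 46, was 1 to 38 with an array left out, and the 1 was without CC replicate 1. No paired analysis was possible because 1 group is described and no test was run. Levels near the yardstick cannot separate low expression from probe background.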

Other observations

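Large gene families outside the marker lists are set against the 69.8% of all genes that were above background. All 35 measured subunits of respiratory complex I were above background with a median of 8.96, as were 39 of 40 proteasome subunits (median 9.14) and 63 of 67 cytosolic ribosomal proteins (median 9.94). Of 347 zinc finger proteins named Zfp, 287 were above background (82.7%), and of 92 potassium channel genes 72 (78.3%). The shares of the Zfp genes and of the potassium channels are not read as an excess, for the reason given for the transcription factors. At the other end were 0 of 163 vomeronasal receptors on all 3 arrays, with 2 mixed, 1 of 37 taste receptors, 23 of 87 cytochromes P450 (26.4%) and 25 of 52 keratins (48.1%). By kind of transcript, 72.0% of 18553 protein-coding genes and 41.3% of 675 long non-coding RNA genes were above background.

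MicroRNA genes were looked at after their values were seen. Of 287, 112 were above background (39.0%, against 69.8% of all genes), with a median of 4.42. Among the brightest 25, 11 lay on chromosome 12, which carries 47 of the 287. From the bright ones with a mature sequence in RefSeq (GRCm38.p6), 8 are given. The microRNA genes of 1 chromosome other than chromosome 12 were left out of this choice, so the 8 need not be the very brightest. Mir341 was 8.85 ± 0.31 (SD, n = 3), Mir134 8.35 ± 0.19 and Mir692-1 8.26 ± 0.11. Mir679 was 8.12, 7.76 and 8.12 on CC replicates 1, 2 and 3. Mir667 was 7.66 ± 0.10, Mir346 7.64 ± 0.08, Mir382 7.45 ± 0.27 and Mir99b 7.20 ± 0.03. Of the 8 genes given, Mir341, Mir134, Mir679, Mir667 and Mir382 lie on chromosome 12. The array reads the gene's transcript, so the mature forms were not measured. Shown 5′ to 3′ are the mature 5p strands of 4 of the chromosome 12 genes and of Mir99b, with the seed (bases 2 to 8) in capitals, by which a microRNA finds its targets.
mmu-miR-341-5p: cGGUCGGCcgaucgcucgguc
mmu-miR-134-5p: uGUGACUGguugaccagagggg
mmu-miR-679-5p: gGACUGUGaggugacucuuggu
mmu-miR-382-5p: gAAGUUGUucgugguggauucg
mmu-miR-99b-5p: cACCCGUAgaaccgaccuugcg
No seed was shared among the mature strands of the 8 genes (0 pairs). Microarray probe sets for short transcripts give no ranking by abundance: Mir124a-2, a gene of a microRNA known to be abundant in neurons, was 4.91, 4.95 and 5.02 on CC replicates 1, 2 and 3, close to the yardstick, and the liver gene Mir122 was at background at 4.15 ± 0.04.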
